A study of Urocitellus parryii with 3 samples.

Results

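miR-184-3p is 1 of 140 listed microRNAs with reads in liver small RNA libraries of the arctic ground squirrel, a hibernating rodent. MicroRNAs (miRNAs) are small RNAs that guide Argonaute proteins to matching messenger RNAs. The list is partial, and ranks among miRNAs are places within it. miR-184-3p was chosen by its measured level, which was lowest in the library from early arousal. Its reads were those that share the first 18 bases of the mature sequence, and they made up 847 of the 576915 distinct reads of the whole series. Each distinct read was counted once per library, however many genome positions it was listed at.

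The study compared 3 physiological stages, with 1 library for each. The post-reproduction library pooled 6 summer animals with normal body temperature, which served as the non-hibernating controls. The early arousal and late torpor libraries, called arousal and torpor from here on, pooled 4 animals each, out of 14 in all. The colony was kept under 16 hours of light and 8 of dark, while hibernating animals were kept under 4 hours of light and 20 of dark and had passed at least 4 torpor bouts. For hibernating animals the labels give killing on day 4 of a torpor bout, and no separate time for arousal. Only the control animals were described as anaesthetised, with isoflurane, before they were killed. Strain, age and genotype were not given. Against post-reproduction, both hibernation libraries differed in stage, season, light cycle and anaesthesia together, and these cannot be told apart. Equal amounts of RNA were mixed, RNA of 18 to 30 nucleotides (nt) was cut from a gel, and 15 PCR cycles were used. With 1 pooled library per stage there was no replicate error to test against. Intervals are 95% intervals for counting error only, since PCR reads are not independent molecules.

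The miR-184 gene is an intergenic, single-copy miRNA gene that is conserved from insects to mammals. Its 3p arm is the main product and is best known from the lens and cornea, from neurons and from pancreatic islets, where its level follows nutrient state and Argonaute2 is a known target. A miRNA finds its targets mainly through the seed, bases 2 to 8, so a changed 5′ end changes the targets, whereas the 3′ end can be trimmed or extended with A or U by nucleotidyltransferases without touching the seed.

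The forms that carry the results are shown 5′ to 3′, as read from the deposited table. The most frequent insert, which is the 22 nt mature form, is shown first with the seed in capitals. The stretch of genome to which the reads were placed follows, with the bases beyond the mature form in capitals. In the other lines capitals mark the bases that this stretch does not hold, or, in the last line, bases 2 to 8 of a shifted start.
mature form: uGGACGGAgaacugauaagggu
placed genome stretch: tggacggagaactgataagggtTGGT
22 nt + AU: uggacggagaacugauaaggguAU
22 nt + A: uggacggagaacugauaaggguA
22 nt + AA: uggacggagaacugauaaggguAA
23 nt: uggacggagaacugauaaggguu
23 nt + U: uggacggagaacugauaaggguuU
21 nt: uggacggagaacugauaaggg
21 nt + A: uggacggagaacugauaagggA
start 2 bases later: gACGGAGAacugauaagggu

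All reads of miR-184-3p were placed at 1 position, on the minus strand of scaffold 10138, from base 167108 to 167129 for the 22 nt form. The genome build behind these scaffolds is not given in the sources used here, and no annotation of it was used. None of the other 139 listed miRNAs shared bases 2 to 8 with it. Within 100 bases of its 5′ end, outside the miRNA, 0 reads were placed on either strand, so the partner arm from the other side of the hairpin was not detected. A count of 0 allows up to 3 reads, which is 0.534 counts per 1000000 placed reads (CPM) in post-reproduction, 0.535 in arousal and 0.512 in torpor.

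The level of miR-184-3p was highest in post-reproduction, intermediate in torpor and lowest in arousal. Post-reproduction held 4198 reads, which is 748 CPM (interval 725 to 771). Arousal held 1460 reads, or 260 CPM (247 to 274). Torpor held 2468 reads, or 421 CPM (405 to 438). The 3 counting intervals did not overlap, so the order of neighbouring levels was clear of counting error as far as reads can be taken as independent. PCR makes the true error wider, and differences between animals are hidden by pooling. The place of miR-184-3p among the 140 listed miRNAs, counted from the most abundant, was 25 in post-reproduction, 39 in arousal and 29 in torpor. Reads of listed miRNAs made up 93.4% of placed reads in post-reproduction, 92.2% in arousal and 94.9% in torpor. Unlisted miRNAs have no place in these ranks. In whole liver, fewer cells that hold the miRNA and less of it per cell cannot be told apart.

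**Figure D1:**
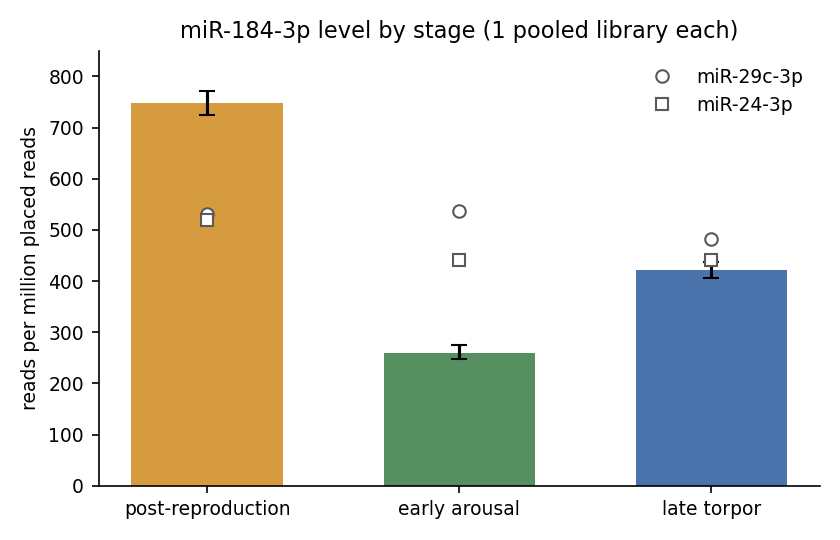
Bars give miR-184-3p in CPM (vertical axis) in the 1 pooled library of each stage (horizontal axis), with error bars for the 95% counting interval. Open symbols are miR-29c-3p and miR-24-3p, the listed miRNAs next above and below it in mean level. miR-184-3p stands above both at 748 in post-reproduction and below both at 260 in early arousal.

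miR-29c-3p, known for repressing collagen genes, and miR-24-3p, known for restraining cell cycle genes, were the listed neighbours in mean level over the 3 libraries. The mean was 517 CPM for miR-29c-3p, 476 for miR-184-3p and 467 for miR-24-3p. miR-29c-3p read 531 CPM in post-reproduction, 536 in arousal and 482 in torpor. miR-24-3p read 519, 442 and 441 CPM in the same order. These neighbours kept to a far narrower range across the stages than miR-184-3p did. Since the arousal level chose miR-184-3p, while the neighbours were taken for mean level alone, this contrast describes the choice. miR-122-5p, the dominant hepatocyte miRNA, supplied 749000, 724000 and 763000 CPM in that order. CPM is scaled to all placed reads with miR-122-5p included, so all other reads together make up only what it leaves.

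Against post-reproduction, miR-184-3p in arousal was at 0.348 times the level (interval 0.328 to 0.369), a log2 ratio of -1.52. That was the lowest ratio of the 86 listed miRNAs that reached 100 reads over both libraries. The background was a median log2 ratio of 0.12, with 35 of the 86 below 0, and 2.33% of them (2 miRNAs) were at least 2-fold lower. The other of the 2 was miR-200a-3p, a miRNA of epithelial cells, at 30.3 CPM in post-reproduction and 12.7 in arousal (log2 ratio -1.26). Next lowest was miR-486-5p, a red blood cell miRNA, at 88.5 and 46.0 CPM (-0.95). Since the arousal level chose miR-184-3p, its place here describes the choice.

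In torpor the level was 0.563 times that of post-reproduction (interval 0.536 to 0.592), a log2 ratio of -0.83. This ratio was number 4 of 87 from the lowest, where the median was -0.10 and 2.3% (2 miRNAs) were at least 2-fold lower; miR-184-3p was not among these. The lower 3 were miR-10a-5p at a log2 ratio of -1.10, miR-200a-3p at -1.10 and miR-152-3p, known for targeting a DNA methyltransferase, at -0.86. The arousal level was in turn 0.618 times that of torpor (interval 0.579 to 0.659), a log2 ratio of -0.69. This was number 3 of 87 from the lowest, where the median was 0.17 and 2.3% (2 miRNAs) were at least 2-fold lower, again without miR-184-3p. Below it were miR-144-3p at -1.55 and miR-486-5p at -1.27, both known from red blood cells. The 3 comparisons share their libraries pair by pair and are therefore not independent. Relative to the median miRNA, miR-184-3p stood at -1.64 for arousal against post-reproduction, -0.73 for torpor against post-reproduction and -0.87 for arousal against torpor.

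**Figure D2:**
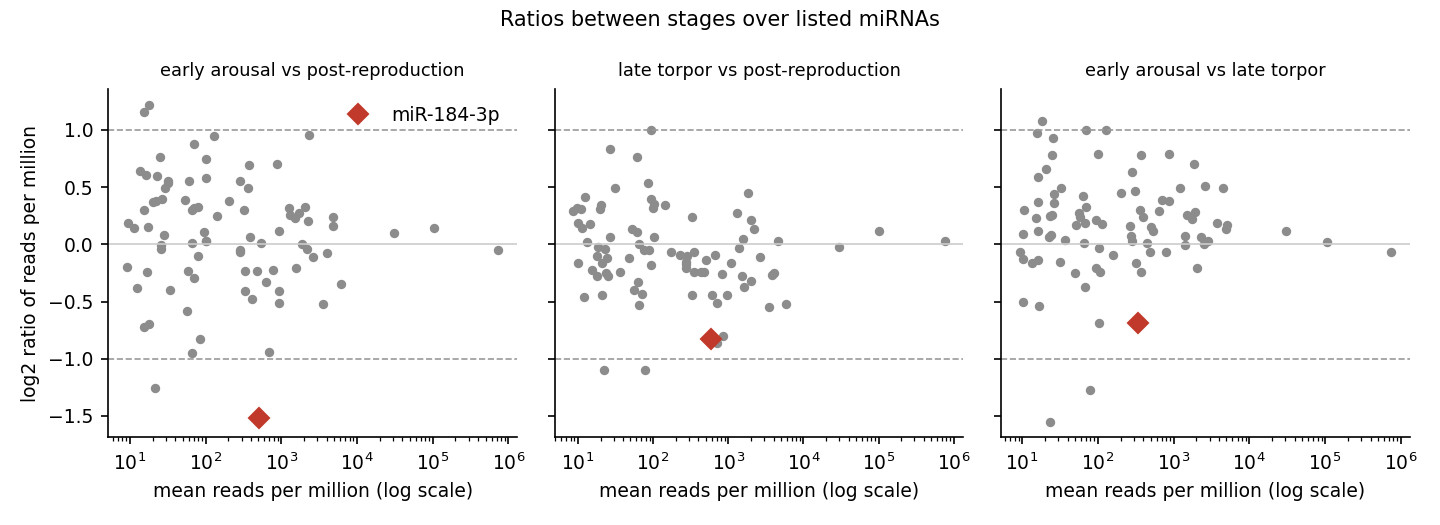
Each panel plots the log2 ratio of CPM between 2 stages (vertical axis) against the mean level of the miRNA in those 2 libraries (horizontal axis, log scale), with 1 point per miRNA of at least 100 reads over both. Dashed lines mark 2-fold differences; miR-184-3p, the red diamond, is the lowest point at -1.52 in the first panel, and lies at -0.83 and -0.69 in the others.

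By the distance between centred log2 profiles over the 3 libraries, the profiles most like that of miR-184-3p among 91 other miRNAs with at least 100 reads in all were those of miR-200b-3p (distance 0.31), miR-200a-3p (0.38) and miR-152-3p (0.49). miR-200b-3p had 59 reads in post-reproduction, 24 in arousal and 30 in torpor. miR-200a-3p had 170, 71 and 83 reads, and miR-152-3p had 5121, 2676 and 2942, in the same order. All 3 were highest in post-reproduction and lowest in arousal, but their arousal and torpor levels lay close together: the ratio of the first to the second was 0.835 (0.467 to 1.48) for miR-200b-3p, 0.893 (0.641 to 1.24) for miR-200a-3p and 0.950 (0.901 to 1.0) for miR-152-3p. For miR-184-3p the same ratio was 0.618 (0.579 to 0.659). That interval overlapped those of miR-200b-3p and miR-200a-3p, which had few reads, and lay below that of miR-152-3p. The arousal level that enters this ratio is also what chose miR-184-3p. A profile over 3 libraries has few shapes to choose from, so likeness here is a description only.

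miRNAs of the tissues known for miR-184 were looked at as fixed lists. Reads were assigned to a miRNA only where a start position had been listed for it, so having none does not show absence. Of the 7 epithelial miRNAs 4 had a read. No start was listed for miR-200c-3p, miR-203a-3p and miR-205-5p, which define skin and surface epithelium, so no reads were assigned to them. Summed, the epithelial list was at 41.7 CPM in post-reproduction, 18.2 in arousal and 20.0 in torpor, mainly from miR-200a-3p and miR-200b-3p. Only miR-200a-3p of its 7 members had enough reads to compare, with log2 ratios of -1.26 in arousal and -1.10 in torpor against post-reproduction. Over all miRNAs compared, 2.33% and 2.3% were at least 2-fold lower in these contrasts. With trimmed mean (TMM) scaling, chosen after seeing the data, 0 miRNAs were at least 2-fold lower in torpor, so miR-200a-3p was not either. Among the 4 islet miRNAs the defining one, miR-375-3p, likewise had no listed start, nor had miR-217-5p, so their absence was not tested. The islet list was carried by miR-7a-5p at 378, 393 and 320 CPM in post-reproduction, arousal and torpor. Of the 8 neural and eye miRNAs 6 had a read. The neural miR-124-3p was at 376, 283 and 278 CPM, miR-9-5p at 232, 340 and 219, and miR-128-3p at 901, 979 and 751, in the same order. Their median log2 ratio was 0.12 in arousal and -0.26 in torpor against post-reproduction, beside medians of 0.12 and -0.10 over all miRNAs compared. Whether cells of these kinds bear on the miR-184-3p level was not tested. The liver label was checked with miR-122-5p, which was the most abundant miRNA in all 3 libraries. Other hepatocyte miRNAs such as miR-148a-3p, miR-194-5p and miR-192-5p also had no listed start and so no assigned reads. The deposited table lists only reads that were placed on the genome used. The red blood cell miRNAs went both ways in arousal against post-reproduction, with log2 ratios of 0.32 for miR-451a, -0.72 for miR-144-3p and -0.95 for miR-486-5p. In torpor against post-reproduction they were at 1.0, 0.83 and 0.32, whereas miR-184-3p was at -0.83. Their summed level was 171 CPM in post-reproduction, 137 in arousal and 272 in torpor, and their median log2 ratio of arousal to torpor was -1.27, beside 0.17 over all miRNAs compared. In that contrast 2 of the 3 were at least 2-fold lower, and these were the 2 of 87 (2.3%) called over all miRNAs. The part of blood content in the lower arousal level of miR-184-3p was not tested.

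The 3′ adapter marks where the RNA insert ends in a 30-base read. It could be found for 3919 of 4198 miR-184-3p reads in post-reproduction (93.4%), 1368 of 1460 in arousal (93.7%) and 2367 of 2468 in torpor (95.9%). Read quality differed between the libraries. Uncalled bases (N) occurred in 5.41% of the miR-184-3p reads of post-reproduction, 0.411% of those of arousal and 0.729% of those of torpor. An adapter without any mismatch was found in 75.4%, 83.8% and 89.1% of the reads, in that order. Among all placed reads 5.76%, 0.407% and 1.04% held an N. Leaving out miR-184-3p reads that hold an N, an alternative chosen after seeing the data, gave log2 ratios of -1.45 for arousal and -0.76 for torpor against post-reproduction. Only the miR-184-3p counts were changed, while the placed-read totals used for scaling still held their reads with an N. These 2 values therefore do not show how such reads bear on the ratio.

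Inserts had peaks at 22 and at 24 nt. The 22 nt inserts were 40.0% of all in post-reproduction (interval 38.4 to 41.5), 39.3% in arousal (36.7 to 41.9) and 42.2% in torpor (40.2 to 44.3). Those of 24 nt were 32.4% (30.9 to 33.9), 32.0% (29.5 to 34.6) and 32.2% (30.4 to 34.2) in the same order. Their share thus kept between 32.0% and 32.4%, with overlapping intervals, across stages whose levels were 748, 260 and 421 CPM. Over 35 other miRNAs the median share of 24 nt inserts was 3.01%, 3.41% and 3.91%, and miR-184-3p stood at places 5, 4 and 4 from the highest. At 23 nt the shares were 21.2% (19.9 to 22.5), 19.7% (17.7 to 21.9) and 17.1% (15.6 to 18.7), so the torpor interval lay below that of post-reproduction. Inserts of 21 nt were 2.83%, 3.14% and 3.04%, and none was as short as 18 nt.

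**Figure D3:**
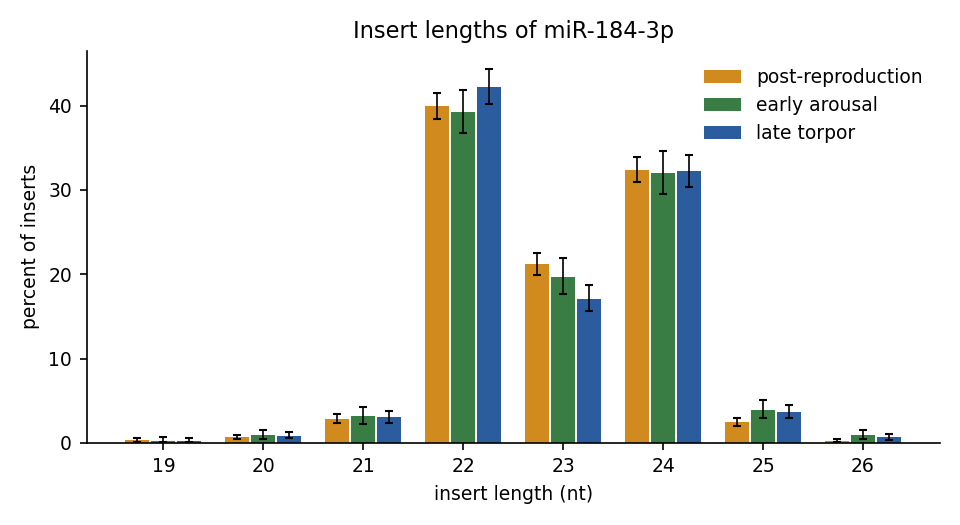
Bars give the percent of miR-184-3p inserts (vertical axis) of each length in nt (horizontal axis) for the 3 libraries, with 95% exact binomial intervals as error bars. The peaks at 22 nt (40.0%, 39.3% and 42.2%) and 24 nt (32.4%, 32.0% and 32.2%) keep their heights across the stages, while the 23 nt bar goes from 21.2% in post-reproduction to 17.1% in late torpor.

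The 24 nt peak was mostly the mature form with the dinucleotide AU at its 3′ end, which the placed genome stretch does not hold. This form made up 63.5% of the 24 nt inserts in post-reproduction, 62.6% in arousal and 67.0% in torpor. As a share of all inserts it was 20.6% (806 inserts, interval 19.3 to 21.9), 20.0% (274 inserts, 17.9 to 22.2) and 21.6% (511 inserts, 19.9 to 23.3), and in each library it was the second most frequent form. First was the mature form without a tail, at 35.4% (1387 inserts), 33.1% (453 inserts) and 36.5% (865 inserts). The same 2 forms therefore were the leading pair in every stage.

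Grouped by their 3′ end, inserts with a mixed A and U tail were 23.1% in post-reproduction (interval 21.8 to 24.5), 24.2% in arousal (21.9 to 26.6) and 25.9% in torpor (24.2 to 27.8). Tails of A alone were 18.2% (17.0 to 19.5), 15.6% (13.8 to 17.7) and 14.8% (13.4 to 16.3). Tails of U alone were 3.32% (2.78 to 3.93), 4.09% (3.11 to 5.28) and 4.18% (3.41 to 5.07). Untailed inserts were 47.9% (46.3 to 49.4), 45.8% (43.2 to 48.5) and 48.7% (46.7 to 50.7). Single G or C ends were 2.45%, 1.46% and 2.24%, and all other ends were 5.03%, 8.77% and 4.14%. The intervals of A tails in post-reproduction and torpor were apart, as were those of other ends in arousal against both remaining stages. Other ends were also more frequent in arousal for most of 35 other miRNAs: the difference was below 0 for 5 of them against post-reproduction (median 0.87 percentage points) and for 1 against torpor (median 1.33 points). The difference of miR-184-3p in points was larger than most. It was 3.75 points against post-reproduction, above all 35 others (highest 2.88), and 4.63 points against torpor, above 34 of them (highest 5.28). Points favour high starting shares, and its share of 5.03% in post-reproduction was already number 4 from the highest (median of the others 1.97%). The relative rise was not ranked. The cause was not tested. The intervals of untailed and U-tailed inserts overlapped in all 3 stages.

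**Figure D4:**
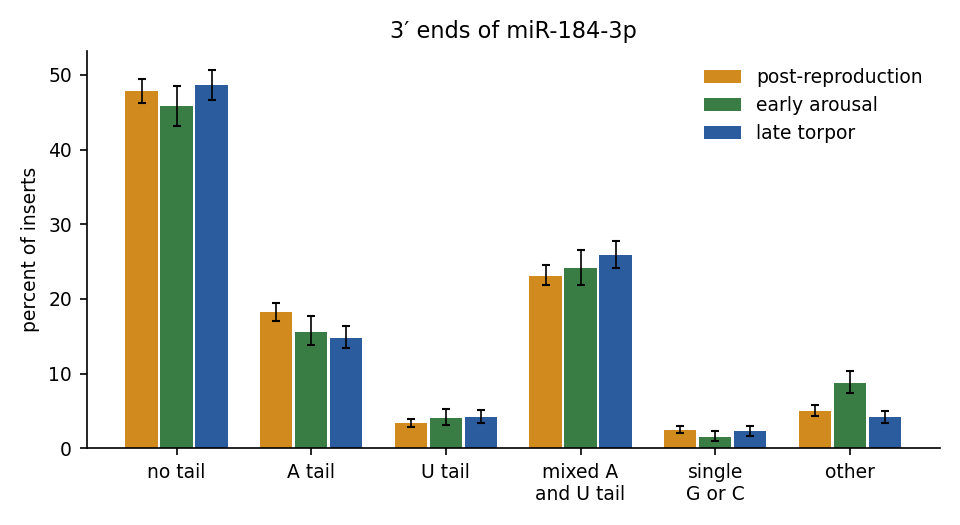
Bars give the percent of miR-184-3p inserts (vertical axis) in each class of 3′ end (horizontal axis) for the 3 libraries, with 95% exact binomial intervals as error bars. Mixed A and U tails (23.1%, 24.2% and 25.9%) outnumber tails of A alone (18.2%, 15.6% and 14.8%) in every library, and tails of U alone stay at or below 4.18%.

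The share of mixed tails was set beside that of other miRNAs, as a description with no test. In the 35 other listed miRNAs that had readable ends and reached 1000 inserts in every library, the median share of mixed tails was 1.20% in post-reproduction, 1.95% in arousal and 1.58% in torpor. The highest of them was miR-378a-3p, a miRNA from an intron of a metabolic coactivator gene, with 12.6%, 17.6% and 16.1%. miR-184-3p was the highest of all 36 in each library. For a tail of exactly AU the share of miR-184-3p was 21.4%, 20.8% and 22.9%, whereas the next, let-7b-5p, had 8.36%, 9.12% and 9.58% and the median was 0.408%, 0.736% and 0.731%. Tails of U alone were less frequent on miR-184-3p than the median of 5.56%, 6.27% and 6.65%, and the range over the others reached 56.6%, 57.6% and 55.9% for miR-24-3p. Tails of A alone were above the median of 9.19%, 10.2% and 10.6%. Left out were let-7i-5p, miR-21-5p and miR-222-3p, whose ends were of the other class in at least 97.1% of inserts. In these 3 the placed part stopped short of the insert end in nearly all reads. Whether the A and U of miR-184-3p were added after transcription or are in the animals' own gene was not tested, since reads were placed on a genome whose species is not given in the sources used here.

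**Figure D5:**
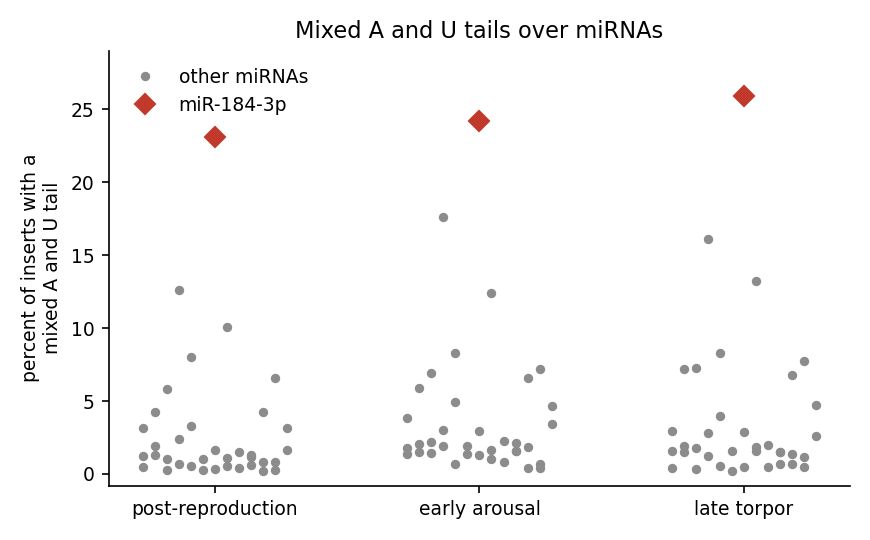
Points give the percent of inserts with a mixed A and U tail (vertical axis) for miR-184-3p (red diamonds) and 35 other miRNAs (grey points, spread sideways for sight only) in the library of each stage (horizontal axis). miR-184-3p lies at 23.1%, 24.2% and 25.9%, above the highest of the others at 12.6%, 17.6% and 16.1%.

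With 1 added A, the mature form differed more between post-reproduction and torpor than the untailed mature form did. It was at 60.4 CPM in post-reproduction, 17.6 in arousal and 21.3 in torpor. Its ratio to post-reproduction was 0.292 in arousal (interval 0.231 to 0.367) and 0.353 in torpor (0.285 to 0.435). For the untailed mature form, at 247, 80.7 and 148 CPM, the ratios were 0.327 (0.293 to 0.364) and 0.597 (0.548 to 0.651). The torpor intervals of these 2 forms did not overlap, and those of arousal did. The form with AA was at 33.3, 7.48 and 15.9 CPM, with ratios of 0.225 (0.157 to 0.315) and 0.476 (0.367 to 0.614). The form with AU had ratios of 0.340 (0.295 to 0.391) and 0.607 (0.543 to 0.679), close to those of the untailed form. As a share of 23 nt inserts, the form with 1 added A was 40.9% in post-reproduction, 36.7% in arousal and 30.9% in torpor, and as a share of all inserts it was 8.65%, 7.24% and 5.28%. Of 35 other miRNAs, 0 had a larger loss of A tails in percentage points than miR-184-3p between post-reproduction and torpor (-3.43 points, others from -2.01 to 4.17). The same held for arousal (-2.58 points, others from -1.17 to 5.58). The median of the others was a gain of 0.78 and of 0.47 points. Points favour high starting shares, and miR-184-3p was number 4 from the highest in post-reproduction. The relative loss was not ranked. Its A tail intervals in arousal (13.8 to 17.7) and post-reproduction (17.0 to 19.5) overlapped. For a tail of exactly 1 A miR-184-3p was not the extreme: its difference was -2.16 points in torpor, where 1 other was lower, and -0.73 points in arousal, where 5 others were lower. When 7 adapter bases were required, which leaves out inserts over 23 nt, A tails were 18.5% in post-reproduction, 17.8% in arousal and 15.0% in torpor, so the difference in arousal narrowed. Post-reproduction was also the library with the most uncalled bases. Without reads that hold an N, A tails were still 18.2% in post-reproduction and 14.8% in torpor, and with an exact adapter they were 18.5% and 14.8%.

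Not every A-tailed form followed this order. The 21 nt form with 1 added A was at 12.8 CPM in post-reproduction, 5.88 in arousal and 11.9 in torpor, so its torpor ratio of 0.931 (interval 0.661 to 1.31) was above that of the untailed mature form. The 21 nt form without a tail was at 17.8, 6.77 and 10.9 CPM. U ends were rarer than AU ends. The 23 nt form, whose last U is in the placed genome, was 8.96% (interval 8.08 to 9.89), 8.77% (7.33 to 10.4) and 8.41% (7.32 to 9.6) of inserts, and the same form with another U was 2.55%, 3.0% and 3.08%. All 12 most frequent forms together held 89.8% of inserts in post-reproduction, 84.8% in arousal and 89.0% in torpor. Each of the 12 was lower in arousal than in post-reproduction, with ratios from 0.225 to 0.680, and the interval of 1 of them, the form with AUU, reached above 1 (0.345 to 1.31). The forms are parts of the same reads whose arousal level chose miR-184-3p, so their shared direction describes the choice.

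The 5′ end, which sets the seed, was nearly uniform. Reads with a start shifted by up to 3 bases numbered 8 of 4206 in post-reproduction (0.190%, interval 0.0822 to 0.374), 7 of 1467 in arousal (0.477%, 0.192 to 0.981) and 21 of 2489 in torpor (0.844%, 0.523 to 1.29). The torpor interval lay above that of post-reproduction, on few reads. With an exact adapter the shares were 0.0947% (3 reads), 0.245% (3 reads) and 0.722% (16 reads). Over the 3 libraries 17 reads started 2 bases later, 11 started 1 base later and 8 started 1 base earlier, against 8126 at the mature start. A start 2 bases later moves bases 2 to 8 to those in capitals in the last sequence above, and no library had more than 10 such reads.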

How the data were processed

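Per the labels, small RNA libraries of liver from 3 stages were sequenced, and the authors deposited 1 table of 30-base reads with their read count per library, placed on genome scaffolds with the placed leading bases marked. Each deposited entry joins a read, its count and its stage, and these were split apart. No source used here names the aligner or build. The table held 4218154 entries on 866747 lines, none with a differing count for the same read, and placed reads numbered 5614441 (post-reproduction), 5860476 (late torpor) and 5611673 (early arousal). Each distinct read was counted once per library and scaled to counts per 1000000 placed reads (CPM), since no table of miRNAs was used. miRNA names came from general knowledge, not from a database, and families that share 18 bases were merged. Inserts of 18 to 26 nt were called by the adapter named in the labels, with at least 4 adapter bases and 1 mismatch per 5; bases beyond the placed part were the tail. Shares have exact Clopper-Pearson intervals and ratios exact conditional binomial intervals (Python 3.11.15, scipy 1.17.1). No test was possible with 1 library per stage. The code was tested on simulated data. Named miRNAs were those nearest in profile (3), next in level, and lowest in each ratio (3), and miR-122-5p; lists of cell type miRNAs and miR-184-3p itself were chosen with earlier results of these data known. The rule that left out 3 miRNAs with unreadable ends (over 50% other ends) was set after their ends were seen. Other scalings, read sets, adapter rules and read minimums were tried.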

Additional observations from a re-analysis of the deposited data

How the results depend on the processing

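No ratio of miR-184-3p changed direction under any of the 9 other settings, and its place from the lowest (1, 4 and 3) was the same under all 5 scalings. The log2 ratio of early arousal to post-reproduction was -1.62 when scaled to listed miRNA reads without miR-122-5p. Late torpor against post-reproduction was -0.74 by median-of-ratios and -0.68 by trimmed mean (TMM, chosen after seeing the data); early arousal against late torpor was -0.84 and -0.86. These scalings moved the median of all miRNAs alike, for the last comparison from 0.17 to 0.03 and 0.01. Using only inserts identical to the mature form, the ratios were -1.61, -0.74 and -0.87. Requiring 7 adapter bases removes inserts over 23 nt from 30-base reads; by that construction 22 nt shares were 61.6% (post-reproduction), 62.1% (arousal) and 66.5% (torpor), mixed tails 0.943%, 0.809% and 1.53%, U tails 0.629%, 0.809% and 0.599%, and A tails 18.5%, 17.8% and 15.0%, so that the A tail difference between arousal and post-reproduction narrowed. With an exact adapter the post-reproduction shares were 38.3% for 22 nt and 24.8% for mixed tails. Tails counted only after the full mature length gave A tails of 14.5%, 11.4% and 10.2%. A U at base 23 counted as a tail, also chosen after seeing the data, gave U tails of 12.2%, 12.9% and 12.5%. Of miRNAs at least 2-fold lower, 2 in each comparison, 1 was left in each at a minimum of 500 reads (miR-184-3p, miR-10a-5p and miR-486-5p); late torpor against post-reproduction gave 4 at 50 reads and 0 by TMM, so that miR-10a-5p and miR-200a-3p were no longer called; none of these counts is from a test. Shifted-start shares stayed within their counting intervals, but these are wide: with an exact adapter they were 0.0947% (from 0.190%), 0.245% (from 0.477%) and 0.722% (from 0.844%), on 3, 3 and 16 reads. The cause of these differences was not tested, apart from the adapter length and the scaling. No paired analysis was possible because each stage has 1 library.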
